A study of Mus musculus with 29 samples.

Results

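The fatty acid binding proteins Fabp1 to Fabp7 are a family of small cytoplasmic proteins, and their transcripts were followed here through the mouse bladder epithelium (urothelium) and its tumors. The 7 genes were chosen by symbol, and all 7 are among the 35199 genes of each table. Fatty acid binding proteins fold into a barrel that shelters a fatty acid, a bile acid or a related lipid in the watery cytoplasm. They carry these ligands to membranes, to lipid droplets, to sites of oxidation and to nuclear receptors, and several of them are themselves classic targets of the peroxisome proliferator-activated receptors (PPARs). Fabp4 is the adipocyte form and is also made by macrophages and capillary endothelium, Fabp5 is the epidermal form, Fabp1 is the liver form, Fabp2 the intestinal form, Fabp3 the heart and muscle form, Fabp6 the ileal form that binds bile acids, and Fabp7 the form of brain glia.

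The series holds 29 RNA-seq libraries. Basal cells were sorted by their Gfp label 4 days after the last of several tamoxifen doses. This gave 5 libraries of mutants labelled K5VP16;Pparg+/- and 4 libraries of controls labelled wild type, both labelled untreated and at homeostasis. In the mutants, Cre recombinase under the Krt5 promoter switches on VP16;Pparg, a Pparg fused to the VP16 activation domain that was placed in the Rosa26 locus under a CAG promoter. The methods give the sorted controls as K5;mTmG, which carry the Cre and the reporter without the transgene, and tamoxifen was given at 8 to 12 weeks of age. Tumor cells were captured by laser from frozen sections of bladders exposed for 5 months to BBN, a nitrosamine given at 0.05% in the drinking water. In that scheme the paper places tamoxifen, given into the bladder, after the first 1 month of BBN, and the tumor titles give 4 months. These are 3 basal tumors of mice labelled wild type, 3 luminal tumors of K5VP16;Pparg+/- mice, and, from K5VP16;Pparg+/- tumors of mixed character, 3 luminal domains from the top and 3 basal-like domains from the bottom of the lesion. A further 8 libraries come from wild type urothelium, of which 4 were exposed to BBN for 1 month and 4 were not, but their columns in the table are not labelled with the treatment.

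All values are normalized counts, made and scaled separately for each table, and values are set against each other only inside one table. The totals ran from 36520193 to 41435665 normalized counts in the 4-day libraries and from 41697178 to 53252995 in the tumor table, and the number of reads behind them is not known. A gene was tested with limma on log2(normalized count + 1) where it had at least 10 normalized counts in as many libraries as the smaller group holds, and was called at an adjusted p under 0.05 (Benjamini-Hochberg over all genes tested). Fold changes on this scale understate those of low genes. Labels give no animal for the captured regions, so some of them may share an animal, and p-values over regions are too small where libraries of one group do so. In bulk samples, more cells that make a transcript and more transcript per cell cannot be told apart.

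The members lie on 5 chromosomes of GRCm38 (GENCODE M21), each with 4 exons. Fabp4 (chr3:10204088-10208576, minus strand) and Fabp5 (chr3:10012548-10016607, plus strand) stand 187 kb apart in a cluster that also holds Pmp2, Fabp9 and Fabp12. Fabp2 is elsewhere on that chromosome (chr3:122895072-122899506, plus strand). Fabp1 is at chr6:71199827-71205023 (plus strand), Fabp3 at chr4:130308595-130315463 (plus strand), Fabp6 at chr11:43596049-43601540 (minus strand) and Fabp7 at chr10:57784881-57788450 (plus strand). Their coding regions are 381 to 405 bases long, and any pair of them is identical at between 51.7% and 66.9% of aligned bases, so the members are far apart in sequence. In the GENCODE transcripts, no stretch of 31 bases (the default word length of kallisto) of Fabp1, Fabp2, Fabp4, Fabp6 or Fabp7 occurs in another gene. For Fabp5 33.1% of these stretches occur elsewhere, most of them (260) in Gm6166, a processed pseudogene at chr9:57483963-57484371. For Fabp3 the share is 50.1%, with 279 stretches in the pseudogene Fabp3-ps1 and 51 in Zcchc17, a gene on the opposite strand that overlaps it. Levels of Fabp3, and to a lesser degree Fabp5, are therefore less certain than those of the other members.

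PPARs bind DNA as partners of retinoid X receptors at direct repeats of a 6-base core spaced by 1 base. RefSeq promoters (GRCm38.p6, 250 bases before to 50 after the start of the gene) were at hand for 5 members, Fabp1, Fabp2, Fabp3, Fabp6 and Fabp7. The start used there can differ from the GENCODE coordinates given above. Both strands were searched for this repeat, spelled AGGNCANAGGNCA with N any base, and for the single core AGGTCA, which can lie inside the repeat. Among these 5 promoters the repeat occurs only in that of Fabp1, once and on the minus strand (chr6:71199812-71199824), and 0.381% of all 32851 promoters hold it. The single core occurs 2 times in the Fabp1 promoter, one of them inside the repeat, 1 time in that of Fabp7 and in none of the other 3, against 16.3% of all promoters. The Fabp1 promoter is printed because Fabp1 was one of the members that rose with VP16;Pparg. It spans chr6:71199629-71199928, plus strand, and the capitals mark the repeat.
Fabp1 promoter: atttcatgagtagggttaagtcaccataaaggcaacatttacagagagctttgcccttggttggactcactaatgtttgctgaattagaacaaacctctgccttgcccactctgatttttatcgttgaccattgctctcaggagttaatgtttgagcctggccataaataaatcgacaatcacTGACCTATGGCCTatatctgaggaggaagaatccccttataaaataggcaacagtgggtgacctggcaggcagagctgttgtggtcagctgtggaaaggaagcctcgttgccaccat
This is a match of letters and not evidence that a receptor sits there.

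The first comparison asks what VP16;Pparg does to the family in basal cells, read 4 days after the last tamoxifen dose. Fabp4, Fabp5 and Fabp1 rose in mutants, and the values of the 2 groups did not overlap for any of them. Of the 7 members, 5 passed the filter and 3 were called, where 2.85% of all genes tested were called and 9.18% had groups that did not overlap. Of these 3, Fabp1 passed the filter only through the mutants, the group where it is high, so the count rests on Fabp4 and Fabp5. In the 4 control libraries Fabp4 stood at 327, 449, 207 and 467 normalized counts, and in the 5 mutant libraries at 30598, 7617, 4969, 5904 and 6934. Every mutant library thus lay more than 10 times above the highest control, and one of them stood far above the other 4. The log2 fold change of Fabp4 was 4.64 (SE 0.49, adjusted p = 0.00171), and it was 4.18 without the highest mutant library.

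For Fabp5 the controls held 2208, 2331, 1717 and 2583 normalized counts and the mutants 14611, 7494, 5721, 6735 and 8560. This gene started from a high level in control basal cells and rose less steeply than Fabp4, with a log2 fold change of 1.90 (SE 0.25, adjusted p = 0.00539). Its pseudogene Gm6166 drew 3.21% to 11.9% of the sum of both in these 9 libraries, and the sum was also higher in all 5 mutants (5985 to 15371 against 1774 to 2729, exact two-sided permutation p = 0.00794, the smallest this design can give). Fabp1 was nearly silent in controls, at 11.3, 3.42, 1.07 and 2.79, and low but present in mutants, at 32.5, 32.4, 47.0, 71.0 and 96.6. Its log2 fold change of 3.51 (SE 0.55, adjusted p = 0.0138) comes from values close to the filter. Only 1 of 4 controls and all 5 mutants reached 10 normalized counts, so Fabp1 was tested only through the group where it is high, and its call carries less weight than those of Fabp4 and Fabp5.

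**Figure D1:**
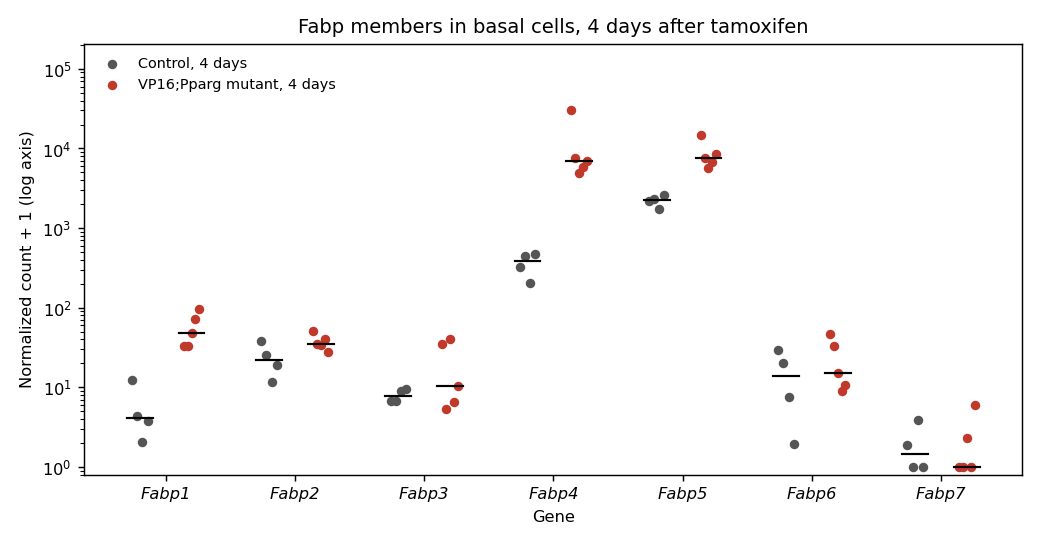
Normalized counts plus 1 (log axis) of the 7 members in sorted basal cells, one point per library, for 4 controls (grey) and 5 mutants (red), with lines at the medians. Fabp1, Fabp4 and Fabp5 separate the groups, the highest control for Fabp4 being at 467 and the lowest mutant at 4969.

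The other members stayed low at 4 days. Control libraries held 10.8 to 36.9 normalized counts of Fabp2 and mutant libraries 27.0 to 49.4 (log2 fold change 0.78, SE 0.37, adjusted p = 0.270). For Fabp6 the controls spanned 0.921 to 28.3 and the mutants 8.11 to 45.8 (log2 fold change 0.96, SE 0.82, adjusted p = 0.544). Their groups overlapped, and the intervals of the differences, -0.05 to 1.61 and -0.86 to 2.79, leave room for a rise. Fabp3 and Fabp7 did not pass the filter. Fabp3 lay between 5.66 and 8.53 in controls and between 4.42 and 40.0 in mutants, and Fabp7 was listed at 0 in 2 controls and 3 mutants and reached 5.00 in one mutant.

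Levels can be compared between genes once divided by transcript length. In control basal cells Fabp5 led, with a median of 2300 normalized counts per kb of transcript, and Fabp4 followed at 433, with ranges that did not overlap (1740 to 2617 against 230 to 521). In mutants the medians were 7739 per kb for Fabp4 and 7593 for Fabp5, and their ranges overlapped widely (5546 to 34149 and 5797 to 14803). The next highest median was that of Fabp1 in mutants, at 84.9 per kb. The log2 ratio of Fabp4 to Fabp5, here on normalized counts not divided by length, averaged -2.66 ± 0.31 over controls (SD, n = 4) and 0.079 ± 0.56 over mutants (SD, n = 5). This difference of 2.74 was tested by exact two-sided permutation (p = 0.00794, adjusted over the 4 ratios tested p = 0.0317, the raw p being the smallest 5 against 4 libraries can give), and every mutant ratio lay above every control ratio. Fabp4 thus rose by a larger factor than Fabp5.

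Mutants and controls also differed in the sum of 4 Y-linked genes. It lay between 338 and 395 in all 5 mutants and at 404 in 1 control, but between 9030 and 9177 in the other 3 controls. Genotype and this Y-linked level are thus nearly inseparable in these libraries, and only the control at 404 sets them apart. That control held 327 normalized counts of Fabp4, 2208 of Fabp5 and 11.3 of Fabp1, below the lowest mutant value for each. Against this single control, which allows no test by itself, the mean log2 value of the mutants was higher by 4.71 for Fabp4, by 1.88 for Fabp5 and by 2.08 for Fabp1. With the Y-linked level as a term in the limma fit, an alternative chosen after the data were seen, the differences are these same values, and none was called (adjusted p = 0.128, 0.218 and 0.435).

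Markers of other cells that make these proteins, and of the urothelium itself, were read beside the members. In the paper's immunostaining at 4 days, Fabp4 protein lay in superficial cells of control urothelium and, in mutants, in basal cells as well. Adipocyte markers summed to between 914 and 1759 normalized counts in mutants and between 724 and 1577 in controls, with 0 of 6 tested markers called by limma (2 at an unadjusted p under 0.05, as were 3418 of all 16413 genes tested). Macrophage markers summed to 2843 to 6012 and 3143 to 4655, with 0 of 9 called (2 unadjusted), and endothelial markers to 338 to 1398 and 389 to 1229, with 0 of 6 called (1 unadjusted). Hepatocyte markers, given for Fabp1, summed to 228 to 567 in mutants and 68.5 to 122 in controls without overlap. Of 2 tested markers 1 was higher and called, and 1 was lower and not called. The called marker was Ttr, the transthyretin carrier of thyroid hormone, while Serpina1a and Fgb were listed at 0 in all 9 libraries. Markers of squamous keratinocytes, given for Fabp5, summed to 76851 to 320074 and 98142 to 111737, with 0 of 6 called and 0 unadjusted. Superficial urothelial markers summed to 299645 to 703398 and 233352 to 430875, with 9 of 9 higher in mutants and 1 called (5 unadjusted). Basal urothelial markers summed to 131617 to 158803 in mutants and 168251 to 202586 in controls, lower without overlap. Of these 7 markers 1 was called lower, Col17a1, a hemidesmosome collagen (log2 fold change -1.34), and 1 higher, Cd44, a hyaluronan receptor (0.76), with 4 of 7 at an unadjusted p under 0.05. Smooth muscle markers summed to 413 to 2745 in mutants and 181 to 1054 in controls, with 7 of 7 higher, a median log2 fold change of 1.47, 0 of 7 called and 4 unadjusted. Striated muscle markers, given for Fabp3, summed to 111 to 331 in mutants and 259 to 713 in controls. All 5 of 5 tested were lower (median log2 fold change -0.99), with 1 called and 2 unadjusted. Enterocyte markers were higher for 2 of 3, with 0 called (2 unadjusted), and glial markers for 1 of 4, with 0 called (0 unadjusted). The part of these lists in the values of the members was not tested.

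Genes that work beside the binding proteins moved in part. Fabp9 and Fabp12 from the cluster around Fabp4 did not pass the filter. Of 13 tested genes for uptake and activation of fatty acids, 4 rose and 0 fell. The largest rises were those of Acsbg1 and Slc27a4, both enzymes that attach coenzyme A to fatty acids, and of Acsl4, which does so for polyunsaturated ones (log2 fold changes 1.99, 1.11 and 0.82). Of 14 tested genes of the lipid droplet and of lipolysis 2 rose, namely Plin2, which coats droplets (0.89), and Dgat2, which makes triglyceride (0.76). Of 22 tested PPAR target genes 5 rose and 0 fell, with the largest changes in Gk, a glycerol kinase (1.84), Angptl4, an inhibitor of lipoprotein lipase (1.83), and Ehhadh, a peroxisomal enzyme of fatty acid oxidation (1.29). The median log2 fold change was 0.50 for uptake, 0.51 for droplet and 0.58 for target genes, against 0.00 over all genes tested. With the Y-linked level as a term, where 26 genes in all were called in place of 467, 1 of the 10 different genes called here was called, Acsbg1 (log2 fold change 2.93), and the fold changes of all 10 stayed above 0. With a library left out in turn, Gk was called in 1 of 9 fits, Ehhadh and Slc27a4 in 6, Acsl4 in 7 and Acsbg1 in 8, while Plin2, Dgat2 and Angptl4 were called in all 9. In the smaller 4-day table, Dgat2, Angptl4, Acsl4 and Ehhadh were not called (adjusted p = 0.0930, 0.106, 0.114 and 0.143), and Gk was not called with no filter, without a trend, with robust eBayes or with quantile normalization (0.0534, 0.0760, 0.0503 and 0.0669). Cd36, a membrane receptor for fatty acids, was low and not called (log2 fold change 0.50, SE 1.22, adjusted p = 0.846). Pparg itself was not called (-0.36, SE 0.12, adjusted p = 0.126), and whether reads of the transgene count towards it is not given in the sources used here.

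The next comparison sets luminal tumors against basal tumors, and here Fabp4, Fabp5, Fabp2 and Fabp6 varied widely between libraries of one tumor type. No member was called by limma, where 2.2% of all genes tested were called. Of the 7 members 4 passed the filter, and 2 of them, Fabp4 and Fabp6, had an unadjusted p under 0.05, as did 2820 of the 15357 genes tested. In the order of the table the basal tumors held 1082, 75.5 and 48303 normalized counts of Fabp4, and the luminal tumors 31727, 310097 and 197271. Thus 2 basal tumors lay far below all luminal tumors while the third lay above the lowest of them. The log2 fold change was 6.30 with an SE of 2.17 (adjusted p = 0.172), and its interval ran from 1.42 to 11.2.

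Fabp5 showed the reverse order of means without a call. Basal tumors held 81411, 7079 and 462032 normalized counts and luminal tumors 11383, 28923 and 67128, so all luminal values lay inside the range of the basal ones (log2 fold change -1.20, SE 1.37, adjusted p = 0.693). Without the third basal tumor the log2 fold change turned to 0.23 (adjusted p = 0.950). That tumor also led the basal group in Fabp4, Fabp3 and Fabp7, and the 7 members together took 1.15% of its normalized counts, against 0.0211% and 0.215% in the other 2 basal tumors and 0.0885% to 0.656% in luminal tumors. Its Gm6166 value was 32463, so the pseudogene and Fabp5 were both at their highest there. In the sum of Fabp5 and Gm6166 the groups overlapped as well (7562 to 494495 in basal and 11429 to 73101 in luminal tumors).

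**Figure D2:**
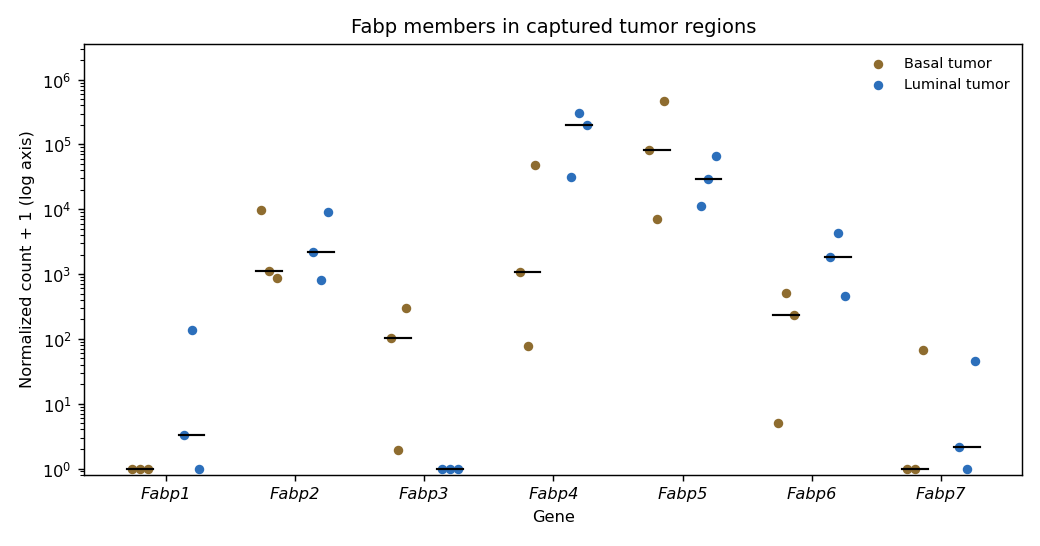
Normalized counts plus 1 (log axis) of the 7 members in laser-captured cells of 3 basal tumors (brown) and 3 luminal tumors (blue), one point per library, with lines at the medians. Fabp4 and Fabp6 sit mostly higher in luminal tumors with 1 library or more in the range of the other group, and Fabp3 is at 0 in all luminal tumors.

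The balance of the pair did not overlap between the tumor types, and how often ratios of other gene pairs do so was not counted. For single genes the share without overlap was 21.5% of all genes tested. Fabp5 exceeded Fabp4 in each basal tumor, with log2 ratios of Fabp4 to Fabp5 between -6.53 and -3.26, and Fabp4 exceeded Fabp5 in each luminal tumor, with log2 ratios between 1.48 and 3.42. The means were -5.34 ± 1.81 (SD, n = 3) and 2.15 ± 1.1 (SD, n = 3), a difference of 7.49. With 3 against 3 libraries the exact two-sided permutation test cannot go below 0.1, and it gave p = 0.1 (adjusted over the 4 ratios p = 0.133). Per kb of transcript the medians were 82484 for Fabp5 and 1208 for Fabp4 in basal tumors, and 220168 for Fabp4 and 29304 for Fabp5 in luminal tumors.

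**Figure D3:**
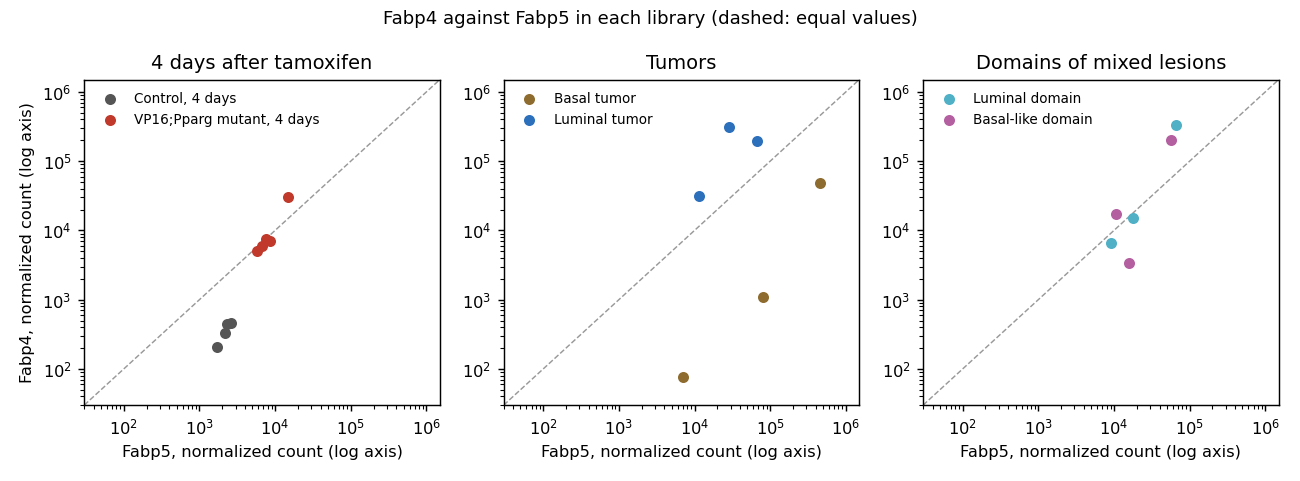
Normalized counts of Fabp4 against those of Fabp5 in each library (both axes log), for 4-day basal cells, tumors and domains of mixed lesions, with a dashed line where both are equal. All 4 controls and all 3 basal tumors lie below the line, the 3 luminal tumors lie above it, and the 4-day mutants and the domains scatter around it.

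Fabp6 is a protein of the ileum, yet its transcript was present in the laser-captured tumor samples of the bladder. Luminal tumors held 1816, 4341 and 462 normalized counts and basal tumors 3.95, 502 and 236 (log2 fold change 4.2, SE 1.57, adjusted p = 0.199). The lowest luminal tumor lay below the highest basal one. Genes of the setting in which Fabp6 normally works were nearly absent. Of 6 genes of ileal bile acid transport none passed the filter, Slc51a, Slc51b and Nr0b2 were listed at 0 in the libraries of both groups, and the list summed to at most 22.0. Enterocyte markers summed to at most 43.0 in any of these tumors, with Cdx1, Alpi, Apoa4 and Apob at 0 in all.

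Fabp2, the intestinal form, had a wide range in both tumor types. It stood at 9769, 1128 and 879 normalized counts in basal and 2209, 813 and 9186 in luminal tumors, with 9769 and 9186 standing far above the other values (log2 fold change 0.26, SE 1.06, adjusted p = 0.924). The interval of that difference, -2.12 to 2.64, is wide. Fabp2 shares its locus with 4933405D12Rik on the opposite strand, but no stretch of 31 bases of Fabp2 occurs in transcripts of that gene on either strand. Whether the counting used strand is not given in the sources used here.

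Fabp3, Fabp1 and Fabp7 did not pass the filter. Fabp3 was detected in basal tumors only, at 102, 0.925 and 304, and was listed at 0 in all 3 luminal tumors. When the basal tumor at 0.925 is left out the filter asks for fewer libraries, Fabp3 is tested, and it is called lower in luminal tumors (log2 fold change -7.47, adjusted p = 0.0415). This call rests on 2 basal libraries and on a gene that passes only through the group where it is high. Striated muscle markers, given for Fabp3, summed to 60.9 to 602 in basal and 11.8 to 79.6 in luminal tumors. Their part in the Fabp3 values was not tested. Fabp1 was listed at 0 in all basal tumors and stood at 2.34, 137 and 0 in luminal tumors. Fabp7 reached 65.4 in 1 basal and 45.3 in 1 luminal tumor and was at 1.14 or 0 in the others.

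Pparg rose in luminal tumors from a mean of 80.3 to 6476 normalized counts (log2 fold change 6.74, adjusted p = 0.0135), the single call among 9 tested PPAR and RXR receptors and partners. Luminal tumors come from mice with the VP16;Pparg transgene and basal tumors from mice labelled wild type. Whether reads of the transgene count towards Pparg is not given in the sources used here, so the share of the gene's own transcript in this rise is not known. Pparg was called in 6 of 8 fits with a library left out (log2 fold changes 5.73 to 7.32), and not without the first or the second luminal tumor (adjusted p = 0.0879 and 0.0814). Those 8 fits include the ones without a luminal domain, a group outside this contrast, where the log2 fold change stayed at 6.74. Cd36 held a mean of 106 in basal and 18.8 in luminal tumors (log2 fold change -3.69, SE 1.99, adjusted p = 0.364). None of the 14 tested genes of uptake, 12 of lipid droplets or 20 PPAR targets was called by limma, while 2, 5 and 7 of them had an unadjusted p under 0.05, beside 2820 of all 15357 genes tested. Their median log2 fold changes were -0.36, 0.99 and 0.35, against -0.11 over all genes tested.

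Markers of other cell types were detected in the captured cells, and their sums differed between the tumor types for some lists. Macrophage markers summed to 36509 to 168433 normalized counts in basal and 4285 to 24821 in luminal tumors, with 11 of 12 lower in luminal tumors (median log2 fold change -4.50), 1 of them called and 9 at an unadjusted p under 0.05. Endothelial markers summed to 3511 to 4924 and 490 to 3929, with 10 of 10 lower (median -3.35), 1 called and 5 unadjusted, and adipocyte markers to 332 to 502 and 213 to 706, with 0 of 3 called, 0 unadjusted, and Lep at 0 in all. The endothelial and adipocyte sums overlapped between the tumor types. Smooth muscle markers summed to 6011 to 51244 in basal and 150 to 1254 in luminal tumors without overlap, with 6 of 6 tested markers lower (median -6.60) and 3 called. The part of these cells in the values of the members was not tested. Squamous markers, given for Fabp5, summed to 57218 to 291714 in basal and 325682 to 1371130 in luminal tumors, with 2 of 10 called, higher in luminal tumors. The list was split, with 6 of its fold changes above 0 and 4 below and a median log2 fold change of 0.35 against -0.11 over all genes tested. Superficial urothelial markers summed to 29469 to 95157 and 442634 to 1942030, with 6 of 9 called higher, and basal urothelial markers to 313016 to 682847 and 16509 to 205945, with 3 of 7 called lower. Both lists differ in the direction of the tumor labels.

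The luminal domains of mixed lesions were compared with the same 3 basal tumors, in a table of their own. These basal libraries are shared with the comparison above, so the 2 sets of values are not independent. No member was called by limma, where 2.53% of all genes tested were called, and 0 of the 4 members tested had an unadjusted p under 0.05, against 3072 of all 14921 genes. Fabp4 stood at 337014, 6468 and 15077 normalized counts in the luminal domains and at 1137, 77.7 and 50164 in basal tumors. Only the first domain therefore exceeded all basal tumors (log2 fold change 4.28, SE 2.28, adjusted p = 0.336). Fabp5 stood at 66900, 8967 and 17733 in the domains and 85542, 7293 and 480008 in basal tumors, fully overlapping (log2 fold change -1.61, SE 1.40, adjusted p = 0.566).

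Among the 4 members tested, Fabp6 was the most even in the luminal domains. Its values of 687, 734 and 563 normalized counts lay above those of 4.14, 515 and 244 in basal tumors, without overlap, as was the case for 26.8% of all genes tested. The log2 fold change of 2.93 (SE 1.59, adjusted p = 0.346) was not called. Fabp2 overlapped (2016, 696 and 4282 against 10257, 1161 and 913, log2 fold change -0.29, adjusted p = 0.897). Fabp3 was listed at 0 in all 3 luminal domains, and without the basal tumor at 0.958 it was tested and called (log2 fold change -7.54, adjusted p = 0.0413), again only through the 2 basal libraries where it is high. Fabp7 was also at 0 in the domains and Fabp1 was seen in 1 of them, at 4.25.

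In the balance of the pair the luminal domains again stood above the basal tumors, with log2 ratios of Fabp4 to Fabp5 of -0.47 to 2.33 against -6.53 to -3.26. The difference was 5.88, and the exact two-sided permutation gave p = 0.1, the smallest it can give here (adjusted over the 4 ratios p = 0.133). Pparg rose in the domains (log2 fold change 6.31, adjusted p = 0.0239) and Cd36 was not called (-0.54, adjusted p = 0.874). As in the luminal tumors, reads of the transgene may count towards Pparg here. Other calls were Acsbg1 (2.31), Pnpla2, the first lipase of triglyceride breakdown (2.86), and Acaa1a, a peroxisomal thiolase (1.39). Each was the single call of its list, out of 14, 12 and 19 genes tested. Of 6 fits with a library left out Pparg was called in 2, Pnpla2 in 1 and Acsbg1 and Acaa1a in 0, and without the first or the second luminal domain 0 genes were called in all. Without a trend Pparg, Acsbg1, Pnpla2 and Acaa1a were not called by limma (adjusted p = 0.0587, 0.106, 0.108 and 0.134). With no filter Acsbg1, Pnpla2 and Acaa1a were not called (0.0616, 0.0616 and 0.0707), nor were Acsbg1 and Acaa1a with upper-quartile scaling (0.0576 and 0.0550). Macrophage markers summed to 15915 to 44660 in the domains against 38075 to 177342 in basal tumors, and endothelial markers to 3635 to 8215 against 3926 to 5222, with 0 called in either list (6 and 1 unadjusted). Adipocyte markers summed to 276 to 3165 against 354 to 531, with 0 of 3 tested called and 0 unadjusted, and smooth muscle markers to 1430 to 1911 against 6299 to 57270, with 3 of 6 called lower.

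**Figure D4:**
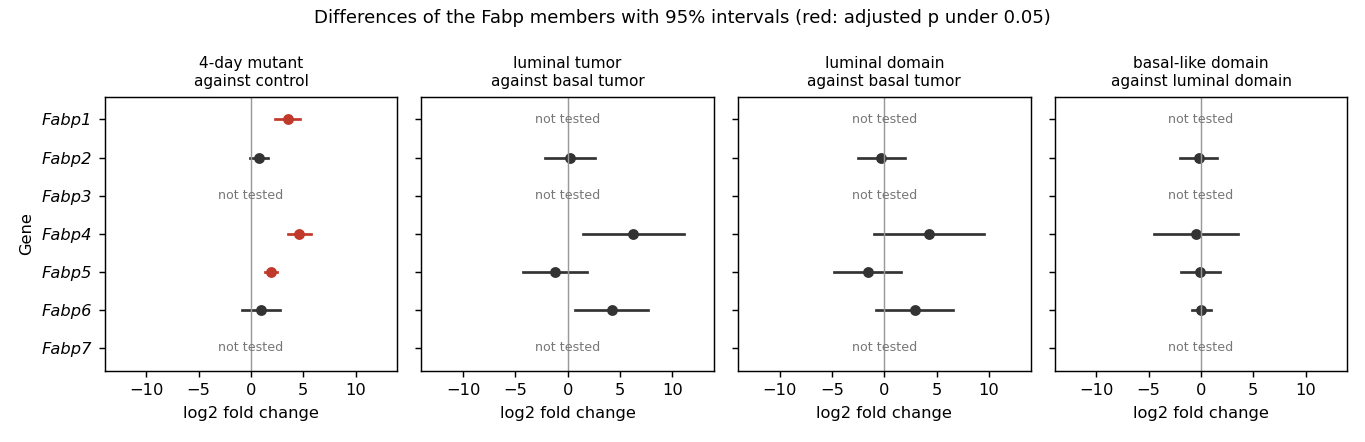
Log2 fold changes of each tested member with 95% intervals in the 4 comparisons, on log2(normalized count + 1), red where the adjusted p is under 0.05. The intervals of the 3 called members at 4 days lie above 0, as for Fabp5 (1.35 to 2.45). In the tumor and domain comparisons widths differ between members, from Fabp6 between the domains (-0.85 to 0.93) to Fabp4 in luminal domains against basal tumors (-0.98 to 9.54).

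Within mixed lesions the basal-like domains were compared with the luminal domains. Both kinds of domain may come from the same lesions, but no label pairs the columns, and an unpaired test can then give p-values that are too large, so the lack of calls here does not show that the domains are alike. No member was called by limma, where 0% of all genes tested were called (757 of 14874 genes had an unadjusted p under 0.05, and 20 were called by limma without a trend). None of the 4 members tested had an unadjusted p under 0.05. The basal-like domains held 201809, 17115 and 3420 normalized counts of Fabp4 and the luminal domains 336309, 6538 and 15225, and the ranges overlapped. The log2 fold change was -0.50 (SE 1.74, adjusted p = 0.989), and its interval of -4.51 to 3.51 leaves large differences possible.

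Fabp5 in basal-like domains stood at 56531, 10595 and 15790 and in luminal domains at 66867, 9078 and 17936 (log2 fold change -0.07, SE 0.81, adjusted p = 0.998). Fabp6 stood at 540, 844 and 650 against 673, 727 and 557, and its interval was the narrowest, -0.85 to 0.93 (log2 fold change 0.04, adjusted p = 0.997). Fabp2 stood at 3188, 662 and 1806 against 2014, 704 and 4329 (-0.23, SE 0.75, adjusted p = 0.989). The ratios of Fabp4 to Fabp5 overlapped (log2 -2.21 to 1.84 in basal-like and -0.47 to 2.33 in luminal domains, exact two-sided permutation p = 0.9). Fabp3 was at 0 in all luminal domains and at 4.52, 20.5 and 0 in basal-like ones, and Fabp1 and Fabp7 did not exceed 4.38 in any domain.

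Pparg held 3230, 2902 and 2326 normalized counts in basal-like and 5427, 5086 and 4116 in luminal domains, without overlap, as for 10.8% of all genes tested, but not called (-0.79, SE 0.24, adjusted p = 0.864). Both kinds of domain come from mice with the transgene, whose reads may count towards Pparg. Cd36 stood at a mean of 10.8 and 57.1 (-2.18, adjusted p = 0.936). None of the other lipid genes on the lists was called. At an unadjusted p under 0.05 there were 2 of 19 PPAR targets, 3 of 11 droplet genes and 0 of 14 uptake genes. Superficial urothelial markers summed to 171428 to 279943 in basal-like and 411046 to 924901 in luminal domains, with 0 of 9 called (3 unadjusted). Basal urothelial markers were higher in basal-like domains for 7 of 7, with 0 called (2 unadjusted). Smooth muscle markers summed to 1968 to 7196 against 1440 to 1921 without overlap, with 4 of 4 tested higher and 0 called (0 unadjusted). T cell markers were higher for 6 of 7, with 0 called (2 unadjusted). The part of these lists in the values of the members was not tested. Adipocyte markers summed to 661 to 5357 against 267 to 3187, while Adipoq, Cfd and Lep were at 0 in all 6 libraries, and macrophage markers to 20123 to 46366 against 16096 to 45589.

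Across the 8 libraries of wild type urothelium, with or without 1 month of BBN, Fabp4 ranged from 1301 to 26351 normalized counts, with no library between 5038 and 13131. Fabp5 ranged from 1167 to 4454 with a median of 2420, Fabp2 from 111 to 314 with a median of 145, and Fabp6 from 48.8 to 210 with a median of 115. The remaining members were low, Fabp1 between 9.83 and 49.0, Fabp3 between 2.41 and 11.5 and Fabp7 between 0 and 15.6. Since the treatment of each column is not known, no test was made. Gm6166 held between 0.108% and 38.5% of its sum with Fabp5 in these libraries, a far wider range than at 4 days, so Fabp5 alone is a less even measure here.

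The genes whose profile was most like that of a member were found by Pearson's r of log2(normalized count + 1), as a description over libraries that also share their groups. Over the 9 libraries of the 4-day table Fabp4 was most like Abca7 (r = 0.979), Dapl1 (0.975) and P4hb (0.972), and Fabp5 was most like Abca7 (0.978), P4hb (0.973) and Rdh12 (0.966). Over the 8 libraries of the tumor table, which include 2 luminal domains, Fabp4 was most like Tmem129 (0.980), Pigx (0.971) and Elovl4 (0.970), and Fabp6 was most like Atp10b (0.970), Ly6g6e (0.969) and Bace2 (0.968). Fabp5 was most like Defb14 (0.947), Itprip (0.943) and Psors1c2 (0.942), and Fabp2 was most like Atp5b (0.959), Sarnp (0.955) and Cmss1 (0.940). No gene was on the list of both Fabp4 and Fabp5 in the tumor table, while Abca7 and P4hb were on both lists at 4 days.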

How the data were processed

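The authors quantified transcripts with kallisto 0.44.0, summed them to genes with tximport and normalized each table with DESeq2 1.18. Signal in the deposited tables means these normalized counts. Because the factors vary from gene to gene, whole reads and depth could not be recovered. The deposited log2 fold changes and p-values of the authors' own comparisons were not used. Genome builds listed in the submitters' processing notes are GRCm38 and GRCh38, and the transcript index is not given in the sources used here.

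Testing used limma 3.58.1 in R 4.3.3 (lmFit, then eBayes with its trend option) on log2(normalized count + 1), for genes that reached 10 normalized counts in as many libraries as the smaller group holds, with Benjamini-Hochberg adjustment over all genes tested and a threshold of 0.05. The fit of luminal against basal tumors used all 8 libraries of its table, with luminal domains as a group of their own. Ratios of Fabp4 to Fabp5 were compared by exact two-sided permutation. Fits were tested on simulated data, with changes added to 200 genes and, for luminal tumors, only the 6 libraries of the contrast. At a log2 change of 2, limma recovered 0% in luminal tumors or domains against basal tumors, 25% between the domains and 87% at 4 days. At a log2 change of 4 it recovered 49% in luminal tumors, 48.5% in luminal domains, 74.5% between the domains and 96.5% at 4 days. A lack of calls in tumors and domains therefore does not show that groups are alike. Members and lists were chosen with earlier results of these data known. All members are named, and of each list of lipid genes the called genes with the 3 largest changes, besides Pparg and Cd36, and the list of other lipid-binding proteins is not reported here. Fabp9, Fabp12, Gm6166, Zcchc17, Ttr, Col17a1 and Cd44 were named after values were seen. Alternatives were other pseudocounts, filters, variance models, scalings and tables, and each library left out. Sequences were handled with Python 3.11.15 and Biopython 1.88, promoters are from RefSeq, and figures were drawn with matplotlib 3.10.9. Nothing states that libraries came from separate mice, so p-values measure the spread between these libraries.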

Additional observations from a re-analysis of the deposited data

Results flagged for a closer look

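Among 14 groups of 4 or 5 libraries examined (7 members in 4-day controls and mutants), 2 held a library set apart from the rest. For normally distributed values chance sets apart about 1 group in 20. The rule was applied to normalized counts without a log, so that rate may not hold here. In 4-day mutants the highest Fabp4 value, 30598 normalized counts, was separated from the next by 0.897 of the range of the group (critical value 0.71). In the same group the highest Fabp7 value, 5.00 normalized counts, was separated from the next by 0.732 of the range, at a level below the filter.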

How the results depend on the processing

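No paired analysis was possible because the columns of the tables carry no replicate numbers. At 4 days Fabp1 passed the main filter only through the mutants, where it is high. Fabp4, Fabp5 and Fabp1 stayed called under all 10 planned settings and with each library left out, always 3 members (log2 fold changes with a library left out 4.18 to 4.84, 1.69 to 2.03 and 3.14 to 3.99). With the Y-linked level as a term, added after the data were seen, 0 members were called and the values were 4.71, 1.88 and 2.08, Fabp2 turned to -0.034 and Fabp6 to -0.64, and 26 genes were called in all in place of 467. That fit estimates genotype from 1 control against 5 mutants. Over all genes the 4-day count was 269 without a trend, 1054 with array weights, 147 in the smaller table and 129 to 596 with a library left out. For luminal against basal tumors it was 338, and 52 with no filter, 142 without a trend, 142 with only the 6 libraries, 513 with tumors and domains as 1 group and 3 to 813 with a library left out. For luminal domains it was 377, and 144 with no filter, 107 without a trend and 0 to 467 with a library left out. For the domains it was 0, and 20 without a trend. The causes were not tested. The ratio of Fabp4 to Fabp5 kept its direction at 4 days (2.49 to 2.83 with a library left out), in luminal tumors (6.86 to 8.53) and in luminal domains (4.99 to 6.93), and changed it between the domains (-1.30 to 0.72).

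No member was called in tumors or domains under any other setting, apart from Fabp3 without 1 basal tumor (0 to 1 members called with a library left out). Signs that turned belong to uncalled members. In luminal against basal tumors Fabp2 turned to -0.16 with array weights and -0.23 with tumors and domains as 1 group, and ran from -0.67 to 1.35 with a library left out, Fabp5 from -2.79 to 0.23, Fabp4 from 4.11 to 8.76 and Fabp6 from 2.16 to 5.49. In luminal domains against basal tumors Fabp2 ran from -0.92 to 0.82, Fabp4 from 2.08 to 6.74, Fabp5 from -3.20 to -0.18 and Fabp6 from 0.89 to 4.21. Between the domains Fabp5 turned to 0.037 with quantile normalization and 0.030 with upper-quartile scaling, and with a library left out Fabp2 ran from -0.92 to 0.39, Fabp4 from -2.07 to 1.19, Fabp5 from -0.78 to 0.73 and Fabp6 from -0.13 to 0.19. Upper-quartile scaling moved the median of all genes in luminal against basal tumors from -0.11 to -0.32 and turned the split of 194 higher and 144 lower calls to 147 and 167. Quantile normalization turned the 4-day split of 290 and 177 to 270 and 287.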

Other observations

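The name of the table for the 8 libraries of wild type urothelium, with or without 1 month of BBN, sets 4 columns against the other 4 without saying which were exposed, and 3 of the 7 members, Fabp4, Fabp6 and Fabp2, did not overlap between these sets of columns. In the 4 columns named first, Fabp4 stood at 26351, 13131, 21219 and 24856 normalized counts, and in the other 4 at 2533, 3958, 1301 and 5038. Fabp6 ran the other way, at 48.8, 49.6, 68.7 and 79.0 against 210, 177, 153 and 152, and so did Fabp2, at 128, 142, 111 and 131 against 314, 273, 282 and 147, where only 147 against 142 keeps the sets apart. Fabp5 values of 4454, 2114, 4042 and 3382 against 2250, 2590, 1167 and 1895 did not separate. The sum of Fabp5 and its pseudogene Gm6166 did, at 5204, 3436, 4805 and 5198 against 2700, 2593, 1834 and 2298. Fabp1 did not separate (49.0, 42.2, 23.3 and 9.83 against 48.4, 36.8, 22.8 and 43.6). Pparg stood at 6248, 5993, 7338 and 7352 against 4294, 4793, 2837 and 4143. Among 15905 genes that reached 10 in 4 or more of the 8 libraries, 45.7% kept the same sets of columns apart, so such a split is common in this table. None of this was tested, since the columns are not assigned to a treatment.

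Fabp12, a neighbour of Fabp4 that is not one of the 7 members, stood at 296, 2.09 and 300.1 normalized counts in the 3 basal tumors and at 0, 3.23 and 12.1 in the luminal tumors, and it was not called by limma (log2 fold change -4.10, SE 2.2, adjusted p = 0.362).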
